A study of Homo sapiens with 6 samples.

Results

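In the human bladder cancer cell line T24, 10 genes of heme breakdown, iron uptake, iron storage, iron export and their control were followed. The 10 genes, HMOX1, BACH1, TFRC, SLC11A2, SLC40A1, FTH1, FTL, NCOA4, IREB2 and ACO1, were found by symbol among the 20442 genes of the count table, and all 10 were among the 12650 genes that passed the low-count filter and were tested. Cells received an siRNA, a short double-stranded RNA that lowers a chosen message, for 24 h: one directed at KNSTRN, which encodes a spindle and kinetochore protein (si-KNSTRN, 3 libraries), or a control (si-NC, 3 libraries). Treatment began after 24 h of attachment in 6 cm dishes in both groups. All libraries come from 1 cell line, the submitters call the 3 libraries of a group biological replicates, and the sources used here do not give the siRNA sequences.

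Iron enters most cells bound to transferrin, through the transferrin receptor, and leaves endosomes through a divalent metal transporter. Iron that is not used is stored in ferritin, a shell of heavy and light chains, and is released when a cargo receptor takes ferritin to the lysosome. Heme is opened by heme oxygenase, which sets its iron free. When iron is scarce, iron-regulatory proteins bind hairpins in messenger RNAs called iron-responsive elements (IREs), which blocks translation of ferritin and ferroportin from the 5′ end and protects the transferrin receptor message at the 3′ end. The title of the study names autophagy flux, reactive oxygen species and lysosomal dysfunction, and the lysosome is where ferritin is broken down.

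The hairpins of the members are shown because they divide the 10 genes into those whose messages can be bound by iron-regulatory proteins and those in which no such hairpin was found. Each line gives the RNA-sense strand as DNA letters from GENCODE release 29 transcripts (GRCh38), 5′ to 3′, with the unpaired C and the 6-base loop in capitals.
FTH1, 5′ UTR, chr11:61967575-61967601: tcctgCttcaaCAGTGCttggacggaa
FTL, 5′ UTR, chr19:48965336-48965362: tcttgCttcaaCAGTGTttggacggaa
SLC40A1, 5′ UTR, chr2:189580662-189580688: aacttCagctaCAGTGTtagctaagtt
TFRC, 3′ UTR, chr3:196050980-196051006: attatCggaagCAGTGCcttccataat
TFRC, 3′ UTR, chr3:196050576-196050602: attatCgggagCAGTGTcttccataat
TFRC, 3′ UTR, chr3:196050511-196050537: tgtatCggagaCAGTGAtctccatatg
TFRC, 3′ UTR, chr3:196050464-196050490: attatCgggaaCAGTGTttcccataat
SLC11A2, 3′ UTR, chr12:50988269-50988296: gccatCagagcCAGTGTgtttctatggt

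FTL lies on the plus strand and the other 4 genes on the minus strand. The loops of FTH1 and FTL differ in their last base, and their hairpins have the same bases in the stem next to the loop. The hairpins of FTH1, FTL, SLC40A1 and TFRC were found by a search for an unpaired C, a 5-base stem with at most 1 G:T pair and the loop CAGTGN, with at least 3 of 5 pairs below the C. In the transcripts of all tested genes, such a hairpin was present in 6 of 11549 searched 5′ UTRs (0.052%) and in 14 of 12079 searched 3′ UTRs (0.116%). The SLC11A2 hairpin was found only when 1 unpaired base was allowed on the 3′ side of the stem. That form was present in 27 of 12079 searched 3′ UTRs (0.224%), SLC11A2 included. The SLC11A2 hairpin was present in 5 of the gene's 18 coding transcripts, and that of SLC40A1 in 1 of 5. The FTH1 hairpin was present in 7 of 8 coding transcripts, that of FTL in 1 of 1 and each TFRC hairpin in 3 of 4. The gene counts do not separate the transcripts that hold a hairpin from the others. No hairpin of either form was found in the transcripts of HMOX1, BACH1, NCOA4, IREB2 or ACO1, which says only that these letters were not in the UTRs searched.

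The libraries held 17870543 to 19717513 counted reads in the si-KNSTRN group and 16386799 to 20596074 in the si-NC group, and 3 reads, the limit set by a count of 0, came to between 0.146 and 0.183 CPM for counting error alone; CPM, read counts relative to library size, are TMM-scaled throughout. The targeted gene KNSTRN itself had 269, 245 and 226 reads with si-KNSTRN, libraries 1 to 3, and 777, 663 and 762 reads with si-NC. The si-KNSTRN library 3 lay farther from the other si-KNSTRN libraries (36.1 on the first principal component, against 25.4 and 29.5) than any si-NC library from its group (-30.5 to -30.1). The keratin genes KRT7, KRT8 and KRT18 averaged 1186, 1081 and 901 CPM in si-KNSTRN cells and 1013, 1080 and 843 CPM in si-NC cells. KRT19, EPCAM and KRT17 were low, at 0.80, 0.70 and 0.23 CPM in si-KNSTRN cells and 1.03, 0.72 and 0.13 CPM in si-NC cells. CDH1 and the urothelial gene UPK3A had no read in any library. Among other urothelial markers, PPARG averaged 44.8 CPM in si-KNSTRN cells and 28.7 CPM in si-NC cells. GATA3 averaged 1.37 and 1.64 CPM, and UPK1A, UPK1B and UPK2 at most 0.832 CPM. A match to an epithelial cell type thus rests on KRT7, KRT8 and KRT18. Since macrophages and erythroid cells are rich in these iron genes, their markers were summed: 7 macrophage markers came to 46.0 to 48.3 CPM in si-KNSTRN libraries and 30.8 to 36.1 CPM in si-NC libraries, of which CD68, a lysosomal membrane gene, made up 45.4 and 32.6 CPM on average. PTPRC averaged 0.0701 CPM in si-KNSTRN cells and 0.0347 CPM in si-NC cells, MARCO had no read, and 7 erythroid markers summed to at most 0.554 CPM in si-KNSTRN libraries and 0.933 CPM in si-NC libraries.

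Of the 10 iron genes, 5 were called higher in si-KNSTRN cells (HMOX1, TFRC, FTH1, FTL and SLC11A2), 3 were called lower (NCOA4, IREB2 and ACO1) and 2 were not called (BACH1 and SLC40A1), by edgeR's quasi-likelihood test at a Benjamini-Hochberg adjusted p under 0.05 over all genes tested. Among all genes tested 62.5% were called, 31.2% higher and 31.3% lower, so that a share of 8 in 10 rests on a background in which most genes were called. The median log2 fold change of the 10 genes was 0.27, beside -0.01 over all genes tested. A log2 fold change of at least 1 in either direction with a call was met by 6.43% of genes tested, and among the 10 iron genes by HMOX1 alone. The libraries of the groups did not overlap for 9 of the 10, beside 67.3% of all genes tested. In bulk RNA, a change in all cells and a change in some of them cannot be told apart. The 10 genes ranged from 2.33 for HMOX1 to -0.55 for NCOA4.

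**Figure D1:**
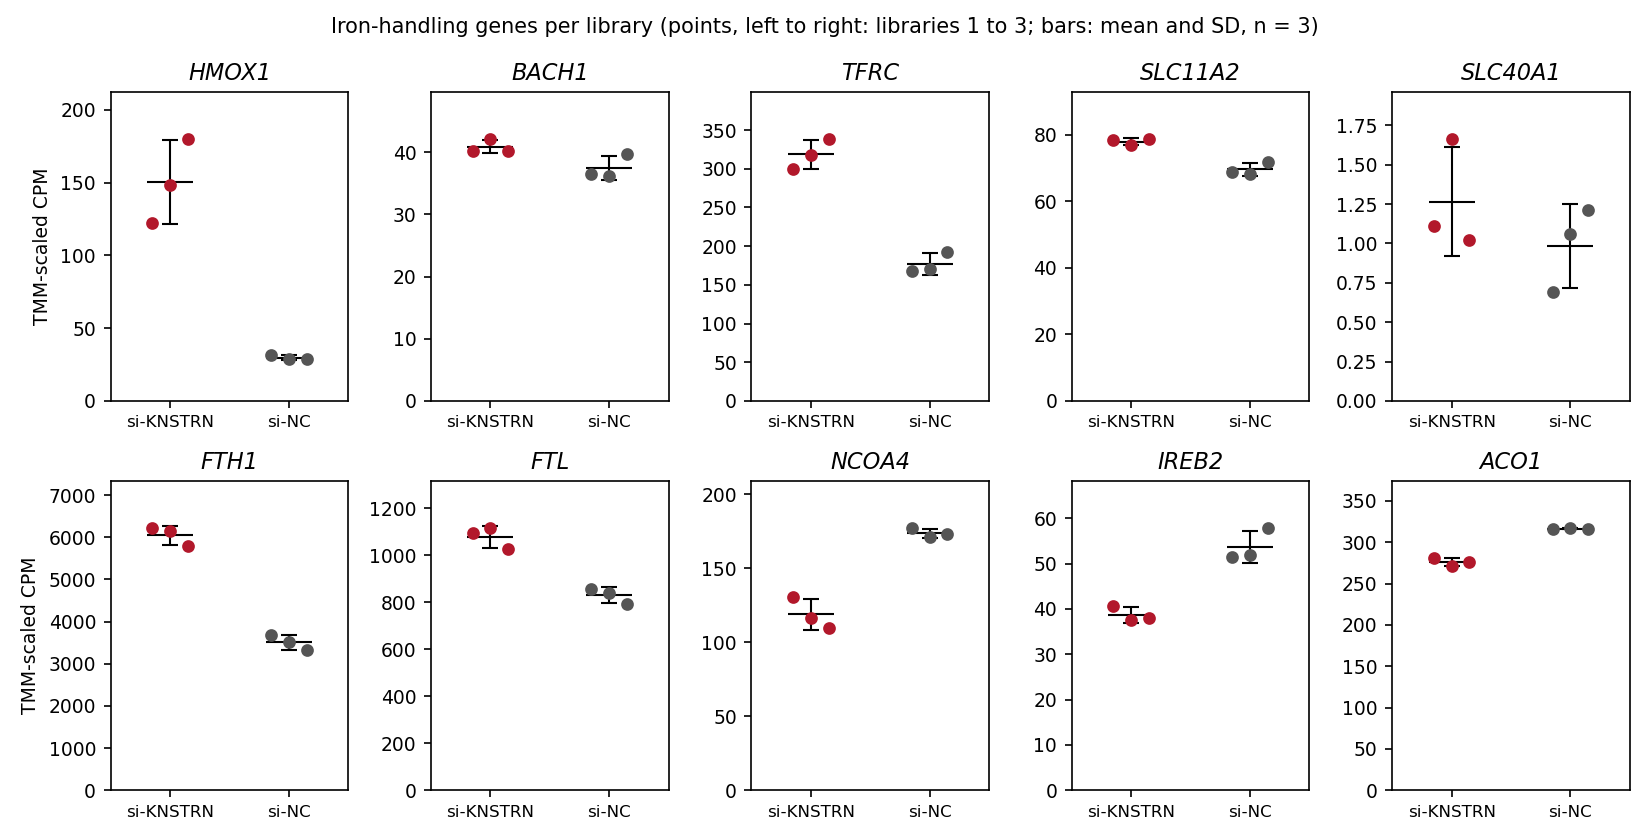
TMM-scaled CPM (y axis, from 0, a separate scale per gene) of the 10 iron genes in si-KNSTRN and si-NC libraries; points are libraries 1 to 3, bars the mean and SD of 3. HMOX1 libraries lie at 122 to 180 CPM with si-KNSTRN and 28.6 to 31.7 CPM with si-NC, and SLC40A1 is the single gene in which the groups overlap.

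HMOX1, which encodes the inducible heme oxygenase that opens heme into biliverdin, iron and carbon monoxide, had the largest fold change of the 10. It had 122, 149 and 180 CPM in si-KNSTRN libraries 1 to 3 and 31.7, 28.6 and 28.9 CPM in si-NC libraries 1 to 3. Every si-KNSTRN library lay far above every si-NC library, and the si-KNSTRN libraries differed more among themselves, with a coefficient of variation of 19.3% against 5.86% in si-NC cells. The mean was 150 ± 28.9 CPM in si-KNSTRN cells and 29.7 ± 1.74 CPM in si-NC cells (SD, n = 3 each; 5.04-fold, log2 fold change 2.33, SE 0.11, adjusted p = 2.0e-11 by edgeR), and 65 of 12650 genes tested (0.514%), HMOX1 included, were called higher with at least its fold change. Its rank by level among the genes tested was 1266 in si-KNSTRN cells and 6061 in si-NC cells. The 5 genes whose centred log2 CPM lay closest to that of HMOX1 over the 6 libraries, by root mean square distance, were CDKN1A (0.0631), SGK1 (0.131), ODC1 (0.131), IL1A (0.138) and SEMA3F (0.142), with distances in log2 units. CDKN1A, which encodes the cell cycle inhibitor p21, had 62.6, 73.8 and 84.1 CPM in si-KNSTRN libraries 1 to 3 and 15.3, 12.9 and 14.6 CPM in si-NC libraries 1 to 3, in the same order of libraries as HMOX1 within both groups. These distances describe 2 groups of 3 libraries and carry no test.

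HMOX2, the gene of the constitutive heme oxygenase, rose less, to 91.1 CPM in si-KNSTRN cells against 70.1 CPM in si-NC cells (log2 fold change 0.38, SE 0.05, adjusted p = 4.0e-06 by edgeR). The ratio of HMOX1 to HMOX2 reads, which does not depend on scaling between libraries, was 1.35, 1.60 and 2.00 in si-KNSTRN libraries 1 to 3 and 0.441, 0.396 and 0.436 in si-NC libraries 1 to 3. HMOX1 thus had more reads than HMOX2 in all si-KNSTRN libraries and fewer in all si-NC libraries. The groups did not overlap, with a two-sided exact permutation p of 0.10, the smallest that 3 against 3 can give.

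BACH1, a repressor that holds HMOX1 and ferritin genes down until heme binds it, had 40.3, 42.1 and 40.3 CPM in si-KNSTRN libraries 1 to 3 and 36.6, 36.1 and 39.7 CPM in si-NC libraries 1 to 3. The groups did not overlap, but si-NC library 3 lay close to the si-KNSTRN libraries. BACH1 was not called (log2 fold change 0.13, SE 0.06, 95% interval -0.0029 to 0.25, adjusted p = 0.082 by edgeR). It was called with library size as the sole scaling (0.16, adjusted p = 0.034) and without si-NC library 3 (0.17, adjusted p = 0.027). BACH1 thus differed by at most 0.25 on the log2 scale within the interval, beside 2.33 for HMOX1.

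TFRC, the transferrin receptor gene, had 300, 318 and 338 CPM in si-KNSTRN libraries 1 to 3 and 168, 171 and 193 CPM in si-NC libraries 1 to 3. All si-KNSTRN libraries lay well above all si-NC libraries, and in both groups library 3 was the highest. Its mean rose to 319 ± 19.0 CPM in si-KNSTRN cells, against 177 ± 13.7 CPM in si-NC cells (SD, n = 3 each; 1.80-fold, log2 fold change 0.85, SE 0.06, adjusted p = 3.1e-09 by edgeR). SLC11A2, the gene of the divalent metal transporter DMT1, moved little, at 78.3, 76.9 and 78.7 CPM in si-KNSTRN libraries 1 to 3 and 68.9, 68.1 and 71.8 CPM in si-NC libraries 1 to 3. The libraries of each group lay close together and the groups did not overlap, so that even a small difference was called (log2 fold change 0.16, SE 0.05, adjusted p = 0.0053 by edgeR). TFRC and SLC11A2, which act in the same uptake route, were both higher, by 1.80-fold and 1.12-fold.

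SLC40A1 encodes ferroportin, the iron exporter of the cell surface. Its reads were 22, 30 and 19 with si-KNSTRN, libraries 1 to 3, and 14, 17 and 22 with si-NC, or 1.27 ± 0.346 CPM and 0.985 ± 0.267 CPM (SD, n = 3 each). The groups overlapped, and the gene was not called (log2 fold change 0.37, SE 0.28, 95% interval -0.23 to 0.97, adjusted p = 0.26 by edgeR). The interval held both no difference and a difference of the size of that in TFRC. Its rank by level among 12650 genes tested was 11762 in si-KNSTRN cells and 12071 in si-NC cells.

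FTH1, the gene of the ferritin heavy chain, which oxidizes iron for storage, was the most abundant of the 10. It had 6212, 6146 and 5795 CPM in si-KNSTRN libraries 1 to 3 and 3672, 3527 and 3318 CPM in si-NC libraries 1 to 3. In both groups library 3 was the lowest, and the gap between the groups was wider than the range within either. Its mean rose to 6051 ± 224 CPM in si-KNSTRN cells, against 3506 ± 178 CPM in si-NC cells (SD, n = 3 each; 1.73-fold, log2 fold change 0.79, SE 0.05, adjusted p = 1.6e-09 by edgeR). FTH1 took 0.612% of all counted reads in si-KNSTRN cells and 0.346% in si-NC cells, and moved to rank 6 by level in si-KNSTRN cells, against rank 16 in si-NC cells. FTL, the gene of the light chain, which supports the iron core, had 1096, 1115 and 1026 CPM in si-KNSTRN libraries 1 to 3 and 857, 840 and 792 CPM in si-NC libraries 1 to 3. It rose by less, 1.30-fold (log2 fold change 0.38, SE 0.05, adjusted p = 5.6e-06 by edgeR).

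The ratio of FTH1 to FTL reads was 5.67, 5.51 and 5.65 in si-KNSTRN libraries 1 to 3 and 4.28, 4.20 and 4.19 in si-NC libraries 1 to 3. The ratio was higher in every si-KNSTRN library, by 0.41 on the log2 scale (two-sided exact permutation p = 0.10, the smallest possible). Both genes have processed pseudogenes: 40.4% of the 50-base windows of the FTH1 transcript and 18.3% of those of the FTL transcript occur in other genes, which are absent from the count table, and the sources used here do not say how reads with several alignments were counted. The levels of FTH1 and FTL, and the ratio between them, are uncertain to that extent. FTH1 also overlaps BEST1, which had 7 to 16 reads in any library. The ratio of TFRC to FTH1 reads, 0.0483, 0.0517 and 0.0584 in si-KNSTRN libraries 1 to 3 and 0.0456, 0.0484 and 0.0581 in si-NC libraries 1 to 3, overlapped between the groups (difference 0.06 on the log2 scale, two-sided exact permutation p = 0.60). The messages of the receptor, with its hairpins at the 3′ end, and of the ferritin heavy chain, with its hairpin at the 5′ end, were thus both higher and by fold changes of 1.80 and 1.73.

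**Figure D2:**
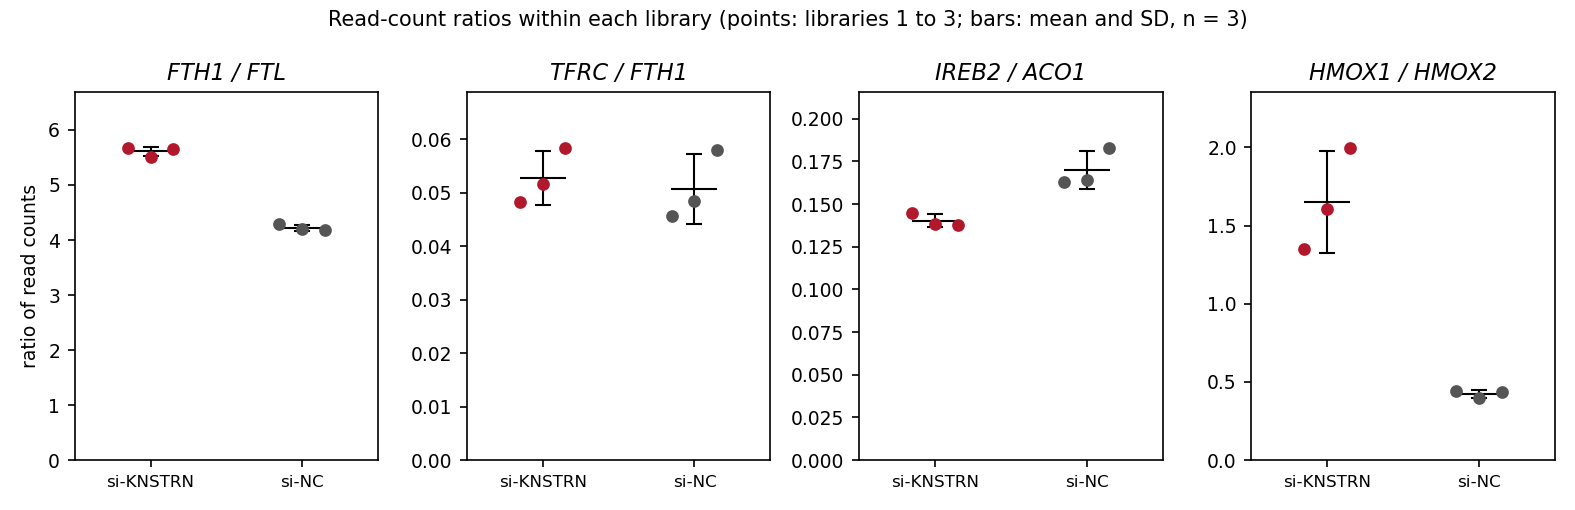
Read-count ratios of gene pairs within each library (y axis, from 0) in si-KNSTRN and si-NC libraries; points are libraries 1 to 3, bars the mean and SD of 3. FTH1/FTL is 5.51 to 5.67 with si-KNSTRN and 4.19 to 4.28 with si-NC, IREB2/ACO1 is lower and HMOX1/HMOX2 higher in every si-KNSTRN library, and TFRC/FTH1 overlaps.

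NCOA4, the cargo receptor that takes ferritin to the lysosome for breakdown, went down while both ferritin genes went up. It had 130, 116 and 110 CPM in si-KNSTRN libraries 1 to 3 and 177, 171 and 173 CPM in si-NC libraries 1 to 3. The si-NC libraries lay close together and the si-KNSTRN libraries were spread more widely, with no overlap. Its mean fell to 119 ± 10.6 CPM in si-KNSTRN cells, against 174 ± 3.03 CPM in si-NC cells (SD, n = 3 each; log2 fold change -0.55, SE 0.06, adjusted p = 3.3e-07 by edgeR). Library 3 of the si-KNSTRN group held the highest HMOX1 and TFRC and the lowest NCOA4, FTH1 and FTL levels of its group; without it, the 5 calls stood, with log2 fold changes of 2.18 for HMOX1, 0.80 for TFRC, -0.49 for NCOA4, 0.82 for FTH1 and 0.41 for FTL. Pseudogenes share 8.55% of the 50-base windows of the NCOA4 transcript.

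IREB2 and ACO1 encode the iron-regulatory proteins IRP2 and IRP1. IRP2 is destroyed when iron is plentiful, and IRP1 then carries an iron-sulfur cluster and acts as the cytosolic aconitase. IREB2 had 40.8, 37.5 and 38.1 CPM in si-KNSTRN libraries 1 to 3 and 51.5, 51.9 and 57.8 CPM in si-NC libraries 1 to 3. The groups did not overlap, and IREB2 fell to 0.722 of its si-NC level (log2 fold change -0.47, SE 0.06, adjusted p = 5.7e-06 by edgeR). ACO1 had 281, 271 and 276 CPM in si-KNSTRN libraries 1 to 3 and 316, 317 and 316 CPM in si-NC libraries 1 to 3. Its si-NC libraries were almost equal, and all si-KNSTRN libraries lay below them (log2 fold change -0.20, SE 0.04, adjusted p = 0.00071 by edgeR). IREB2 lost more than ACO1, as the ratio of IREB2 to ACO1 reads was 0.145, 0.138 and 0.138 in si-KNSTRN libraries 1 to 3 and 0.163, 0.164 and 0.183 in si-NC libraries 1 to 3 (difference -0.27 on the log2 scale, two-sided exact permutation p = 0.10, the smallest possible).

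Both genes hold the 7 letters CTGAGTA in the 3′ UTR. The word and its core TGAGTA are shown because they are met more often in genes called lower in these data, a pattern found earlier in the same libraries and so no independent support here. The lines give 24 bases, 5′ to 3′ on the RNA-sense strand, from GENCODE release 29 transcripts (GRCh38), with the word in capitals.
IREB2, chr15:78499241-78499264: agttgttgCTGAGTActatatatc
ACO1, chr9:32454092-32454115: agtgtcccCTGAGTAaaacagttc
SLC11A2, chr12:50987924-50987947: actacagaaTGAGTAtgcaagttt
SLC40A1, chr2:189561594-189561617: tatttctcaTGAGTAgatacaatc
BACH1, chr21:29345324-29345347: acaggattaTGAGTAtacagtgta

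CTGAGTA was present in the 3′ UTR of 16.1% of searched genes called lower and 7.63% of those called higher, and in 11.8% of all 12245 searched. TGAGTA was present in 34.7% of those called lower, 19% of those called higher and 26.7% of all. These shares were not adjusted for 3′ UTR length, which was 4658 bases in ACO1 and 3313 in IREB2. It was 209 bases in NCOA4, 616 in HMOX1, 442 in FTH1, 143 in FTL and 2658 in TFRC. Among the 3 iron genes called lower, NCOA4 held neither CTGAGTA nor TGAGTA. SLC11A2, called higher, held TGAGTA without the leading C, as did SLC40A1 and BACH1, which were not called. HMOX1, FTH1, FTL and TFRC held neither word. Upstream of the genes, RefSeq promoter windows (GRCh38.p14) were matched for 8 of the 10 members, with 15 windows of 250 bases before a start; HMOX1 and FTH1 had none and were not searched. The antioxidant-response core TGACNNNGC, on either strand, was in none of these 15 windows and in 10.9% of all 35116 windows of that length. TGANTCA, a looser word than the AP-1 site TGAGTCA or TGACTCA, was in 1 window each of SLC11A2, NCOA4 and BACH1. It read TGATTCA in SLC11A2 and TGAATCA in NCOA4, which are not that site, and TGAGTCA in BACH1. The looser word was in 6.57% of all windows. CACGTG was in none of the 15 and in 6.34% of all windows.

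**Figure D3:**
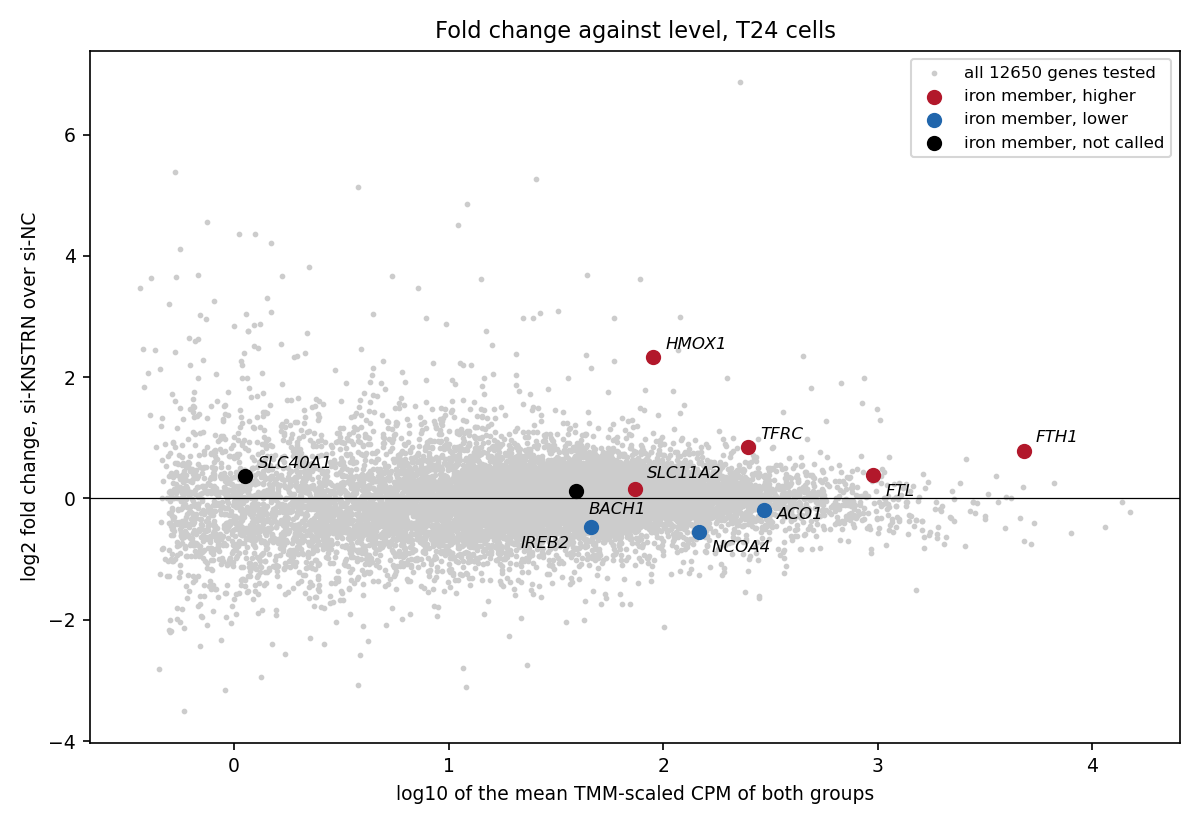
Log2 fold change of si-KNSTRN over si-NC (y axis) against the log10 mean CPM of both groups (x axis) for 12650 genes tested (grey), with the 10 iron genes coloured by call. HMOX1 stands at 2.33, FTH1 lies at the abundant end at 0.79, and NCOA4, IREB2 and ACO1 lie below 0.

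Per kilobase of transcript, ferritin messages stood far above the others. FTH1 came to 4924 ± 183 CPM per kb in si-KNSTRN cells and 2853 ± 145 in si-NC cells, and FTL to 1229 ± 53.8 CPM per kb in si-KNSTRN cells and 945 ± 38.2 in si-NC cells (SD, n = 3 each). In si-KNSTRN cells the next levels were 82.4 ± 15.9 CPM per kb for HMOX1, 62.4 ± 3.72 for TFRC, 51.5 ± 4.61 for NCOA4 and 37.0 ± 0.687 for ACO1. In si-NC cells the order among these 4 was NCOA4 (75.2 ± 1.31 CPM per kb), ACO1 (42.4 ± 0.0344), TFRC (34.6 ± 2.69) and HMOX1 (16.3 ± 0.956). HMOX1 was thus the highest of the 4 per length in si-KNSTRN cells and the lowest in si-NC cells. SLC11A2 stood at 18.7 ± 0.228 CPM per kb in si-KNSTRN cells and 16.7 ± 0.473 in si-NC cells, a value within the spread of HMOX1 in si-NC cells. BACH1 stood at 7.09 ± 0.186 CPM per kb in si-KNSTRN cells and 6.49 ± 0.335 in si-NC cells, and IREB2 at 6.10 ± 0.276 in si-KNSTRN cells and 8.46 ± 0.555 in si-NC cells, so that their order differed between the groups. SLC40A1 was the lowest of the 10, at 0.368 ± 0.101 CPM per kb in si-KNSTRN cells and 0.286 ± 0.0776 in si-NC cells. Apart from SLC11A2 and HMOX1 in si-NC cells, neighbours in this order lay further apart than their SDs added together in both groups, HMOX1 and TFRC in si-KNSTRN cells by little.

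The rest of the pathway was read from 10 lists, which together hold 104 genes besides the members, 93 of them tested. Of these, 36 were higher (38.7%), 24 lower (25.8%) and 33 not called, with a median log2 fold change of 0.06, beside 31.2% higher and 31.3% lower over all genes tested. Each list held genes called in both directions.

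**Figure D4:**
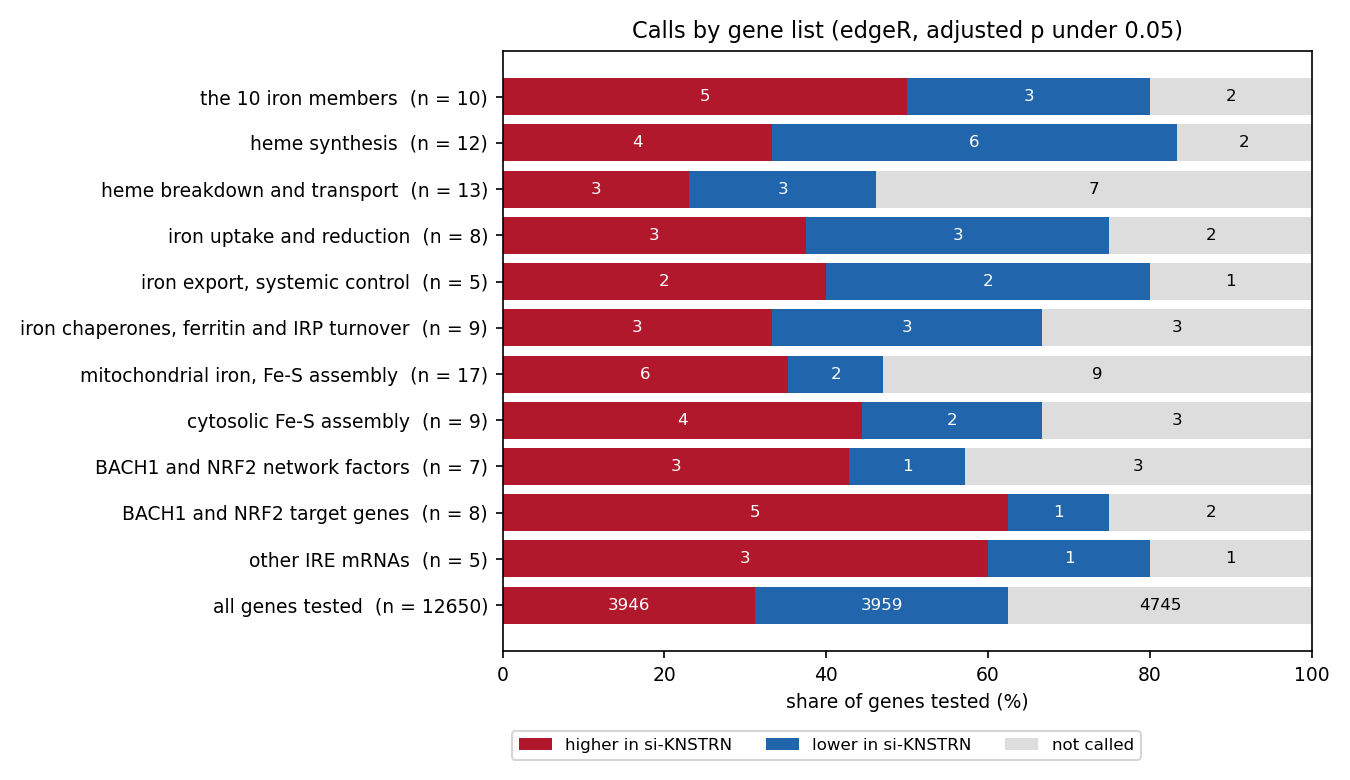
Share of tested genes (x axis, %) called higher, called lower or not called in si-KNSTRN cells, for the 10 iron members, 10 lists of the wider pathway and all 12650 genes tested; numbers in the bars are genes. Heme synthesis is the one list with more genes lower (6) than higher (4).

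Heme synthesis had 4 of 12 tested genes higher, 6 lower and 2 not called, with a median log2 fold change of -0.14. ALAS1, the gene of the rate-limiting synthase at the start of the pathway, rose to 103 ± 2.42 CPM in si-KNSTRN cells, against 61.1 ± 1.29 CPM in si-NC cells (SD, n = 3 each; log2 fold change 0.75, SE 0.05, adjusted p = 8.9e-10 by edgeR). FECH, the gene of ferrochelatase, which puts iron into the ring at the end of the pathway, fell to 19.8 ± 2.04 CPM in si-KNSTRN cells, against 35.0 ± 1.64 CPM in si-NC cells (log2 fold change -0.82, SE 0.08, adjusted p = 1.2e-07 by edgeR). Of the enzymes between them, chosen after their values were seen, ALAD fell by 0.54, UROS had a log2 fold change of 0.05 (not called), UROD of 0.13 and CPOX of 0.43, and PPOX fell by 0.28. The erythroid synthase gene ALAS2 was at 0.124 CPM in si-KNSTRN cells and 0.179 CPM in si-NC cells and was not tested.

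Heme breakdown and transport beyond HMOX1 had 3 of 13 higher, 3 lower and 7 not called. ABCG2, which encodes an exporter of drugs and porphyrins, rose to 20.7 ± 0.371 CPM in si-KNSTRN cells, against 8.06 ± 1.08 CPM in si-NC cells (SD, n = 3 each; log2 fold change 1.36, SE 0.09, adjusted p = 3.9e-09 by edgeR). LRP1, the gene of an endocytic receptor that takes up heme bound to hemopexin among many ligands, fell to 219 ± 7.92 CPM in si-KNSTRN cells, against 515 ± 17.8 CPM in si-NC cells (log2 fold change -1.23, SE 0.05, adjusted p = 3.4e-12 by edgeR). BLVRA, a biliverdin reductase gene that acts next after heme oxygenase and was chosen after its value was seen, also rose (log2 fold change 0.28, adjusted p = 8.7e-05 by edgeR). The other biliverdin reductase gene, BLVRB, was not called (log2 fold change -0.09, adjusted p = 0.27 by edgeR).

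Genes of iron uptake and reduction other than the members had 3 of 8 higher, 3 lower and 2 not called. STEAP3, the gene of an endosomal reductase that prepares transferrin iron for transport, rose to 28.8 ± 1.61 CPM in si-KNSTRN cells, against 16.5 ± 0.476 CPM in si-NC cells (SD, n = 3 each; log2 fold change 0.81, SE 0.07, adjusted p = 4.9e-08 by edgeR). MELTF, the melanotransferrin gene, fell to 171 ± 5.11 CPM in si-KNSTRN cells, against 273 ± 11.3 CPM in si-NC cells (log2 fold change -0.67, SE 0.05). In iron export and systemic control 5 of 9 genes were tested, 2 higher, 2 lower and 1 not called, all at low levels. CP, the ceruloplasmin gene, was covered by 7, 7 and 3 reads with si-KNSTRN, libraries 1 to 3, and by 47, 35 and 47 with si-NC (log2 fold change -2.94, SE 0.29). HEPHL1, a related ferroxidase gene, was covered by 42, 45 and 27 reads with si-KNSTRN and by 4, 7 and 2 with si-NC (log2 fold change 3.05, SE 0.37). The libraries of each gene did not overlap between the groups. BMP6, a ligand that raises hepcidin in liver, rose as well (log2 fold change 2.20, SE 0.28), with 36, 28 and 37 reads with si-KNSTRN and 6, 6 and 9 with si-NC, and PROM2, tied to ferritin export, fell by 1.11 (SE 0.21).

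Iron chaperones and turnover of ferritin and IRP2 had 3 of 9 higher, 3 lower and 3 not called. GLRX3, a cytosolic iron-sulfur carrier gene (log2 fold change 0.46, SE 0.05), and CUL1, a scaffold of the ligase that marks IRP2 (0.30, SE 0.05), led by p. Other genes of that ligase, chosen after their values were seen, were not higher. FBXL5 was not called (log2 fold change -0.11). RBX1 was called lower (-0.22), and SKP1 narrowly so (-0.11, adjusted p = 0.049 by edgeR). Mitochondrial iron and iron-sulfur assembly had 6 of 17 higher, 2 lower and 9 not called. HSPA9, the gene of the mitochondrial chaperone mortalin, rose to 622 ± 38.0 CPM in si-KNSTRN cells, against 316 ± 16.4 CPM in si-NC cells (SD, n = 3 each; log2 fold change 0.98, SE 0.05, adjusted p = 2.6e-10 by edgeR), and NFS1, the gene of the sulfur donor, rose too (log2 fold change 0.58, SE 0.05). Cytosolic iron-sulfur assembly had 4 of 9 higher, 2 lower and 3 not called, led by NDOR1 (log2 fold change 0.55) and NUBP2 (0.50). Other messages known to hold or reported with IREs had 3 of 5 higher, 1 lower and 1 not called, among them EPAS1, the gene of the hypoxia factor HIF2-alpha (log2 fold change 0.58, SE 0.05). Of 16 genes outside the members in which the strict hairpin search found a match, 4 were higher, 2 lower and 10 not called.

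BACH1 and NRF2 share small MAF partners and DNA sites, and the members HMOX1, FTH1 and FTL are among their targets. Of 7 genes of these factors, 3 were higher, 1 lower and 3 not called. MAFF, a small MAF gene, rose to 39.4 ± 0.532 CPM in si-KNSTRN cells, against 24.5 ± 1.07 CPM in si-NC cells (SD, n = 3 each; log2 fold change 0.69, SE 0.06, adjusted p = 9.6e-08 by edgeR), and NFE2L1, the gene of NRF1, fell to 178 ± 6.07 CPM in si-KNSTRN cells, against 292 ± 2.87 CPM in si-NC cells (log2 fold change -0.71, SE 0.04, adjusted p = 1.1e-09 by edgeR). Of 8 other targets, 5 were higher, 1 lower and 2 not called, with a median log2 fold change of 0.17. TXNRD1, the gene of a thioredoxin reductase, rose (log2 fold change 0.49, SE 0.05). The cystine carrier gene SLC7A11 and the glutathione ligase gene GCLC, chosen after their values were seen, had log2 fold changes of 0.04 and 0.05 and were not called. The largest change among these 8 targets, 0.62 for SRXN1, was well under that of HMOX1.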

How the data were processed

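The authors deposited 1 table of raw read counts by gene symbol, not normalized, whose columns were matched to samples by the column name in each description. The submitters' processing notes name FastQC 0.11.5, fastp 0.20.0, HISAT2 2.0.1, featureCounts and the build GRCh38. The sources used here do not give the annotation release, the strand setting or the treatment of reads with several alignments. Replicate pairs differed by more than sampling noise (chi-square per degree of freedom from 2.16 to 10.3), and none was merged. The edgeR p-values judge the difference between the groups against the spread between libraries of a group, all from 1 cell line.

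The whole table was tested with edgeR 4.0.16 (R 4.3.3): filterByExpr with a minimum count of 10, TMM scaling, and glmQLFit with glmQLFTest for si-KNSTRN over si-NC, two-sided, with Benjamini-Hochberg adjustment over 12650 genes. Standard errors follow from the log2 fold change and the F statistic. The test was first run on simulated data. The members and lists were chosen with earlier results of these data known. Besides the members and KNSTRN, the text names in each list the 2 called genes with the smallest p and every called gene with an absolute log2 fold change of at least 1, and the 5 genes closest to HMOX1 among genes averaging 2 or more on the log2 CPM scale. Some genes and sequences that meet these rules are not reported here. Hairpins, words and lengths were read in Python 3.11.15 from 1 coding transcript per gene of GENCODE release 29, found for 12245 of the genes tested; the members' hairpins were sought in all their coding transcripts. Figures were drawn with matplotlib 3.10.9. Alternatives were median-of-ratios, upper-quartile and no scaling factors, no filter, a CPM minimum of 1 in 3 libraries, DESeq2 1.42.0, limma-voom (limma 3.58.1), a replicate block, leaving out single libraries and an adjusted p under 0.01.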

Additional observations from a re-analysis of the deposited data

How the results depend on the processing

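Of the 10 iron genes, the 8 calls held their direction and their adjusted p under 0.05 in all 14 refits (3 other scalings, 2 other filters, DESeq2, limma-voom, the replicate block and each of 6 libraries left out). HMOX1 ranged over log2 fold changes of 2.18 to 2.46, FTH1 over 0.74 to 0.82, TFRC over 0.80 to 0.91, FTL over 0.34 to 0.42, SLC11A2 over 0.12 to 0.20, NCOA4 over -0.62 to -0.49, IREB2 over -0.51 to -0.42 and ACO1 over -0.24 to -0.16. BACH1 was called higher with library size as the sole scaling (log2 fold change 0.16, adjusted p = 0.034) and in the leave-one-out range of 0.10 to 0.17 at its highest value, without si-NC library 3 (adjusted p = 0.027), and in no other refit; the cause was not tested. SLC40A1 ranged over 0.13 to 0.55 and was never called. At an adjusted p under 0.01, 5 members were higher and 3 lower. The share of all genes tested that met this stricter cut is not given here, so these counts have no background beside them. With 1 library left out, TFRC/FTH1 differed by -0.01 to 0.16 on the log2 scale, and FTH1/FTL by 0.40 to 0.42. Same-numbered libraries of the groups did not deviate together (correlations of -0.063, 0.053 and -0.034), so the numbers were not taken to pair them; with the replicate block, 5 members were higher and 3 lower, and 3831 and 3857 genes of the whole table. Among the targets of BACH1 and NRF2, 3 were higher and 0 lower at an adjusted p under 0.01, likewise without that share. Depth limits SLC40A1, CP, HEPHL1, BMP6 and PROM2, with under 50 reads in every library.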
